A study of Homo sapiens with 20 samples.

Results

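A set of 10 genes that supply histones to new chromatin were followed here across all 5 treatment groups: SLBP, LSM11, CASP8AP2, NPAT, CHAF1A, CHAF1B, ASF1A, ASF1B, NASP and H2AZ1. They were chosen by name for their known roles, not by a measured value, though earlier results of these data were known. All 10 were found among the 58787 genes of the count table. All were among the 13729 that had enough counts to be tested. The cells were IMR-32, a human neuroblastoma line with MYCN amplification, grown as adherent cultures, left for 24 h to attach and then given drug for 24 h. The groups were the vehicle DMSO, the dynamin inhibitor Dyngo-4a at 1 µM (low dose), Dyngo-4a at 2.26 µM (high dose), the checkpoint kinase 1 inhibitor prexasertib at 2 nM, and both drugs given together (the combination), for which no doses are labelled. Each group had 4 libraries, and every group carried the same cell line with no other agent or allele named.

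Cells that copy their DNA need new histones at the same pace, and the members cover successive steps of that supply. NPAT switches on the replication-dependent histone genes, and SLBP, the U7 particle (with LSM11) and FLASH, the product of CASP8AP2, form and guard the unusual 3′ end of their messages, which is a stem-loop and not a poly(A) tail. The proteins are then carried by chaperones: NASP keeps a soluble store of H3 and H4, ASF1A and ASF1B pass H3-H4 on, and chromatin assembly factor 1 (CHAF1A and CHAF1B) deposits them behind the replication fork, while H2AZ1 encodes H2A.Z, a variant that replaces H2A at promoters and is expressed from a polyadenylated message.

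Libraries held 3960885 to 6537843 counts of 3′ messenger RNA tags, with 18122 to 19951 genes detected in each. Levels below are CPM (counts scaled by the library total and the TMM factor), with 3 counts worth 0.459 to 0.757 CPM, so every member lay far above that floor. The assay reads only the 3′ end and the values are not scaled for transcript length, so levels were compared within a gene and not between genes. All 11 sympathetic neuroblastoma markers examined were above 1 CPM on average, and PRRX1, SOX10, CD3E and KRT18 had 0 counts in all 20 libraries, while the mesenchymal markers summed to 261 to 360 CPM, most of it TWIST1. The nuclear RNA MALAT1 took 2.8% to 3.15% of counts at the high dose, 1.74% to 2.92% in the combination and 0.941% to 1.76% in DMSO. In bulk RNA a smaller share of cells in one cell cycle phase and less RNA per cell cannot be told apart. The labels do not tell whether replicate libraries are separate cultures, so the p-values measure the spread between these libraries.

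Differences were tested with edgeR's quasi-likelihood test over all 13729 genes, two-sided, and a gene was called where its Benjamini-Hochberg adjusted p was under 0.05. Against DMSO, 6 of the 10 members were called at the high dose of Dyngo-4a, where 25.2% of all tested genes were called, and 3 in the combination, where 6.30% were called, while 0 members were called at the low dose and 0 under prexasertib alone. SLBP fell in both of the first 2 comparisons. LSM11 rose at the high dose. The plot of levels by library gives all 20 values of each member.

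**Figure D1:**
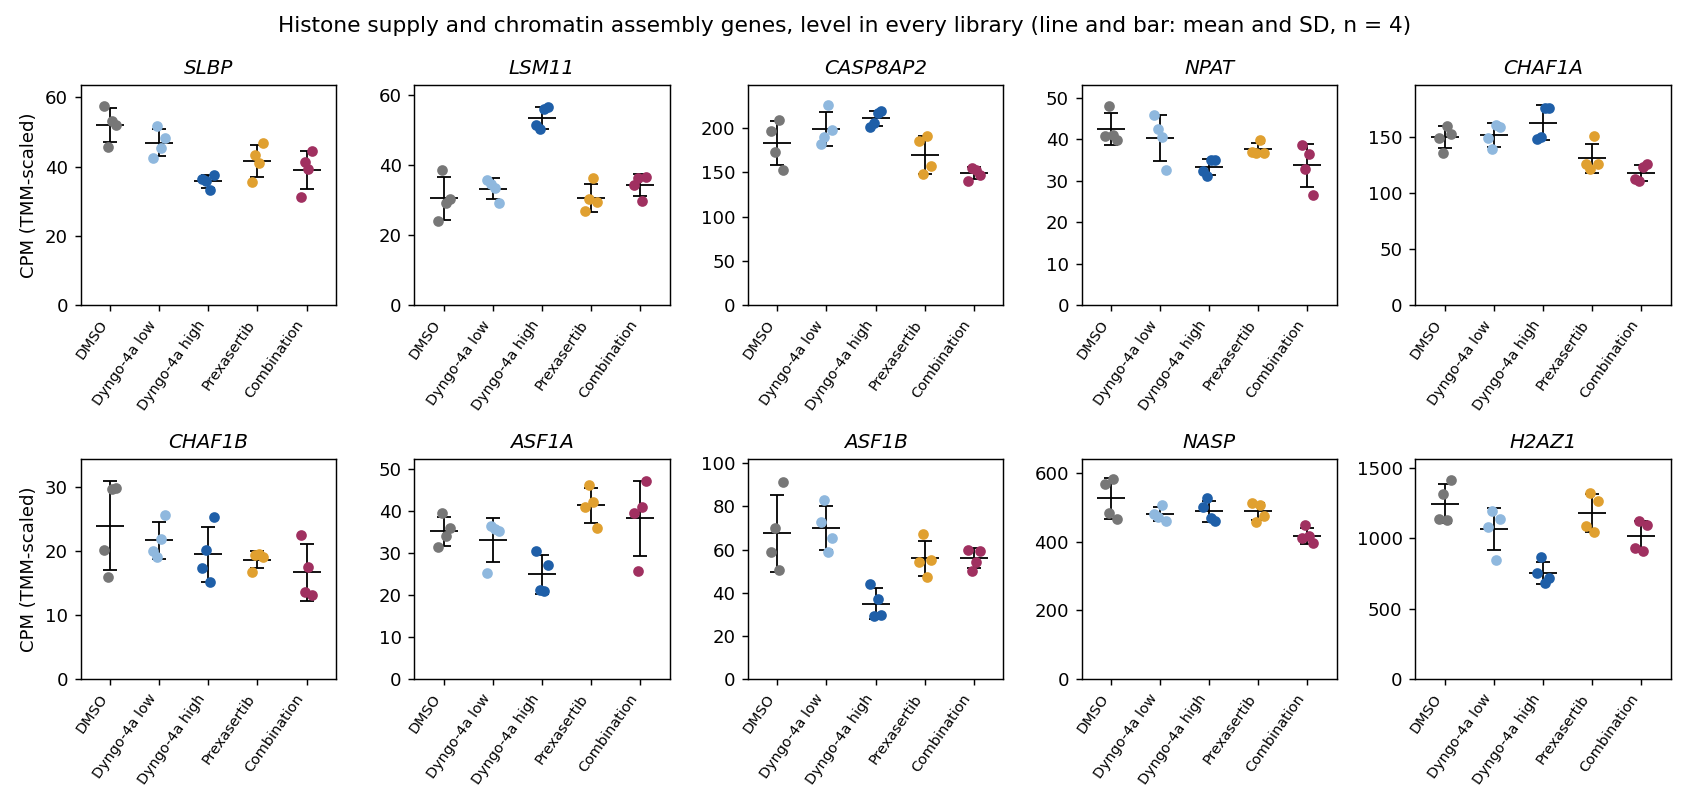
Level of each of the 10 genes (CPM, linear axis from 0) in each of the 20 libraries, by group; points are libraries, and the line and error bar are the group mean and SD. H2AZ1 lies between 685 and 866 CPM at the high dose of Dyngo-4a and between 1128 and 1414 in DMSO, and LSM11 lies between 50.2 and 56.5 against 24.0 to 38.6.

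SLBP, which binds the histone stem-loop and carries the message through processing and translation, lies at chr4:1692800-1712555 (minus strand, GRCh38). It was 57.5, 45.6, 53.0 and 51.9 CPM in the DMSO libraries 1 to 4, and 36.5, 35.8, 33.2 and 37.7 at the high dose. In the combination it was 31.3, 41.2, 39.3 and 44.4. Both treated groups lay below every DMSO library, without overlap. The fall was 0.54 ± 0.12 on the log2 scale at the high dose (log2 fold change ± SE, edgeR adjusted p = 0.000576) and 0.41 ± 0.12 in the combination (edgeR adjusted p = 0.0237). Prexasertib libraries held 35.6 to 46.7 CPM and overlapped DMSO, with a log2 fold change of -0.32 ± 0.11, an edgeR p of 0.00841 and an adjusted p of 1. The low dose group (42.5 to 51.8 CPM) overlapped DMSO too. From highest to lowest the group means ran DMSO, low dose, prexasertib, combination and high dose, and each group overlapped the next. The call in the combination depended on single libraries: the edgeR adjusted p was 0.0897 without DMSO replicate 1, 0.0528 without DMSO replicate 3, 0.134 without combination replicate 1 and 0.0597 without combination replicate 3. It was 0.0598 when only these groups were fitted.

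LSM11, a subunit particular to the U7 small nuclear ribonucleoprotein that cuts histone pre-mRNA, lies at chr5:157743695-157760709 (plus strand). Its level was 24.0, 38.6, 29.2 and 30.3 CPM in DMSO and 51.5, 50.2, 55.9 and 56.5 at the high dose. All high-dose libraries lay above all libraries of the other 4 groups, which reached 38.6 at most. The rise over DMSO was 0.82 ± 0.13 on the log2 scale (95% confidence interval 0.56 to 1.07, edgeR adjusted p = 5.69e-06). In the low dose (29.1 to 35.8 CPM), prexasertib (26.8 to 36.3) and combination (29.7 to 36.6) groups the level overlapped DMSO and no call was made. The combination was lower than the high dose, by 0.64 ± 0.12 on the log2 scale (edgeR adjusted p = 0.000255). LSM11 was the only member that was called higher than DMSO in any group.

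CASP8AP2 encodes FLASH, which docks on LSM11 and helps recruit the cleavage complex. The gene lies at chr6:89829894-89874436 (plus strand). It was 197, 173, 209 and 153 CPM in DMSO, 201, 206, 217 and 219 at the high dose, and 140, 155, 153 and 147 in the combination. The combination libraries lay below every high-dose library and overlapped DMSO. Neither difference from DMSO was called: the log2 fold change was 0.20 ± 0.10 at the high dose (edgeR adjusted p = 0.128) and -0.30 ± 0.10 in the combination (edgeR adjusted p = 0.0642). Without DMSO replicate 4 the combination value passed, with an edgeR adjusted p of 0.0194, and DESeq2 gave an adjusted p of 0.0499. Between the combination and the high dose the difference was -0.50 ± 0.10 (edgeR adjusted p = 0.000288). Against the low dose, where the libraries held 182 to 226 CPM, the combination was lower by 0.42 ± 0.10, with an edgeR adjusted p of 0.00728, or 0.0579 without low-dose replicate 3.

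NPAT, the coactivator that cyclin E-CDK2 phosphorylates at histone gene clusters, lies at chr11:108157215-108222642 (minus strand). Its level was 40.7, 48.1, 41.1 and 39.9 CPM in DMSO and 32.3, 31.2, 35.0 and 34.9 at the high dose. The groups did not overlap, and the fall was 0.34 ± 0.12 on the log2 scale (edgeR adjusted p = 0.0341). Prexasertib (36.7 to 39.8 CPM) and the combination (26.7 to 38.6 CPM) also lay wholly below DMSO, but neither was called: the log2 fold change was -0.17 in prexasertib and -0.34 in the combination, with edgeR adjusted p of 1 and 0.0978. The high-dose call was lost without DMSO replicate 2 (edgeR adjusted p = 0.117), without high-dose replicate 1 (0.0699), without high-dose replicate 2 (0.089), and with no filter on low counts (0.0843). NPAT's first 159 bases overlap ATM on the opposite strand, so reads there could belong to either gene. That stretch does not reach NPAT's 3′ end, which is what the assay reads.

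Of the subunits of chromatin assembly factor 1, CHAF1A fell in the combination and CHAF1B was called in no comparison. CHAF1A, the largest subunit, lies at chr19:4402662-4445018 (plus strand). It was 149, 136, 160 and 153 CPM in DMSO, 148, 150, 176 and 176 at the high dose, and 113, 111, 123 and 126 in the combination. The combination libraries lay below all libraries of DMSO, the low dose (139 to 161 CPM) and the high dose. The combination was lower than DMSO by 0.34 ± 0.09 on the log2 scale (edgeR adjusted p = 0.0184), lower than the low dose by 0.36 ± 0.09 (edgeR adjusted p = 0.0159) and lower than the high dose by 0.46 ± 0.09 (edgeR adjusted p = 0.000387). Prexasertib alone, at 122 to 151 CPM, had a log2 fold change of -0.19 from DMSO with an edgeR p of 0.0439 and an adjusted p of 1. High-dose Dyngo-4a alone had 0.12 ± 0.09, with a 95% confidence interval from -0.07 to 0.30. The difference from DMSO was lost without DMSO replicate 3, combination replicate 1 or combination replicate 2 (edgeR adjusted p = 0.0654, 0.0675 and 0.0627). The difference from the low dose was lost without low-dose replicate 3 or 4 or combination replicate 1 or 2 (edgeR adjusted p = 0.067, 0.065, 0.0642 and 0.0743). Its last 20 bases overlap UBXN6 on the other strand.

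CHAF1B, the middle subunit, lies at chr21:36385378-36419015 (plus strand) and had the fewest counts, 64 to 187 in a library. It was 20.2, 16, 29.8 and 29.9 CPM in DMSO, 17.4, 20.2, 15.2 and 25.3 at the high dose, and 22.6, 13.6, 17.5 and 13.1 in the combination. All groups overlapped. The combination difference of -0.55 ± 0.19 on the log2 scale had a 95% confidence interval from -0.93 to -0.17 and an edgeR adjusted p of 0.0762, which became 0.0232 without DMSO replicate 2 and 0.0243 without combination replicate 1. At the high dose the value was -0.31 ± 0.18 (edgeR adjusted p = 0.227). The 5′ end of CHAF1B shares 771 bases with MORC3 on the same strand, so reads from that stretch could not be assigned to one of the genes.

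CASP8AP2 and CHAF1A had similar profiles over the 20 libraries, as described further on, and the bases before their start sites are given for that reason. Each run is the 250 bases before the RefSeq start site in GRCh38.p14, on the plus strand and 5′ to 3′, at chr6:89829630-89829879 for CASP8AP2 and chr19:4402390-4402639 for CHAF1A. Capitals mark every match to the words searched on both strands, which were CCAAT and the E2F words TTTCCCGC, then TTTCGCGC, then TTTGCCGC, and last TTTGGCGC. A CCAAT on the opposite strand reads ATTGG here.
CASP8AP2: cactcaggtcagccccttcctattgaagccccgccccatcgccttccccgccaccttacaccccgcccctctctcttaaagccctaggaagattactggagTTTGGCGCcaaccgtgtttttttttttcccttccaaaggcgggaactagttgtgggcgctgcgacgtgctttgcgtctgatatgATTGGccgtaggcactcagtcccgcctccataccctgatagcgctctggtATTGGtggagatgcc
CHAF1A: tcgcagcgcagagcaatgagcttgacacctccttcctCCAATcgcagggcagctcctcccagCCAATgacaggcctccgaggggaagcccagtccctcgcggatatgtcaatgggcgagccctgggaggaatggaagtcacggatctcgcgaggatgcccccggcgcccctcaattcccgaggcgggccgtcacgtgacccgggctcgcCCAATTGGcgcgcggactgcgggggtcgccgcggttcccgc
CASP8AP2 held 1 E2F word, starting 149 bases before the start site, and 2 CCAAT words on the opposite strand, 65 and 15 bases before it. CHAF1A held 4 CCAAT words and 0 E2F words. The last 2 of these, 41 and 38 bases before the start and on opposite strands, overlap. Of 35116 windows of the same length, 32% held a CCAAT word, 2.79% held an E2F word and 1.02% held both. Among the other members, NPAT held 2 CCAAT words, ASF1B 3, NASP 1 and H2AZ1 3, and SLBP, LSM11, CHAF1B and ASF1A held 0. GENCODE 29 exons, of any gene and strand, cover all 250 bases of the NPAT and ASF1B windows and 236 of SLBP's. They cover 149 bases for H2AZ1, 125 for ASF1A, 120 for NASP, 17 for LSM11, 14 for CHAF1B and 0 for CASP8AP2 and CHAF1A. A match is a run of letters and says nothing about binding.

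ASF1A and ASF1B are the paralogous chaperones that hand H3-H4 dimers to deposition factors, and both were lower at the high dose. ASF1B, the copy tied to proliferating cells, lies at chr19:14119509-14136956 (minus strand). It was 58.8, 69.9, 50.4 and 91.4 CPM in DMSO, 44.0, 29.4, 37.2 and 29.5 at the high dose, and 59.9, 50.3, 54.2 and 59.5 in the combination. The high-dose libraries lay below every other library of the series, and the other groups overlapped one another. ASF1B fell by 0.96 ± 0.15 on the log2 scale from DMSO (edgeR adjusted p = 2.7e-05), to 51.8% of the DMSO mean. The size differed between subsets of the libraries: it was -0.42 in replicates 1 and 3 alone (edgeR adjusted p = 0.0434) and -1.47 in replicates 2 and 4 alone (edgeR adjusted p = 2.24e-06), a difference that was not tested. The combination was higher than the high dose by 0.68 ± 0.16 (edgeR adjusted p = 0.00211), and against DMSO it had -0.28 with an edgeR adjusted p of 0.319.

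ASF1A, which also serves replication-independent deposition, lies at chr6:118894220-118909167 (plus strand). Its level was 31.4, 39.6, 34.1 and 35.9 CPM in DMSO and 30.4, 21.2, 21.0 and 27.1 at the high dose. In prexasertib it was 40.9, 46.2, 42.2 and 36.0. High-dose libraries lay below DMSO without overlap and prexasertib libraries overlapped DMSO. The fall at the high dose was 0.50 ± 0.15 on the log2 scale (edgeR adjusted p = 0.0154). It was no longer called without DMSO replicate 2 (edgeR adjusted p = 0.0543), high-dose replicate 2 (0.0621) or high-dose replicate 3 (0.0652). The combination, at 25.7 to 47.0 CPM, was higher than the high dose by 0.61 ± 0.15 (edgeR adjusted p = 0.00355), though its lowest library lay inside the high-dose range. ASF1A lies wholly within MCM9 on the opposite strand. The labels do not say whether the counting used strand, so reads from either could be mixed, though over all libraries MCM9 had 265 counts and ASF1A 3613.

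NASP, which shields free H3 and H4 from degradation, lies at chr1:45583846-45618904 (plus strand). It was 569, 484, 583 and 467 CPM in DMSO and 411, 448, 416 and 395 in the combination. In the other groups it lay between 457 and 527. The combination libraries lay below every library of all other groups. The fall from DMSO was 0.33 ± 0.09 on the log2 scale (edgeR adjusted p = 0.0125), and it was lost without DMSO replicate 1 or 3 (edgeR adjusted p = 0.0547 and 0.0649) and when only these groups were fitted (0.06). At the high dose NASP was 93% of the DMSO mean, and the 95% confidence interval of that log2 difference ran from -0.28 to 0.07. A pseudogene of NASP took 96 counts over all libraries against 50371 for the gene.

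H2AZ1, the H2A.Z gene, had 3775 to 8835 counts in a library and lies at chr4:99948086-99950388 (minus strand). It was 1135, 1316, 1128 and 1414 CPM in DMSO, 751, 866, 685 and 722 at the high dose, and 933, 1121, 909 and 1094 in the combination. High-dose and combination libraries lay below all DMSO libraries, and the high dose lay below the combination too. The fall at the high dose was 0.72 ± 0.11 on the log2 scale (edgeR adjusted p = 3.14e-06), to 60.6% of the DMSO mean. In the combination the value was -0.30 with an edgeR adjusted p of 0.0888, which became 0.0361 with library-total scaling and 0.0272 with no filter on low counts. At the low dose H2AZ1 was 1083, 1192, 850 and 1138 CPM, which overlapped DMSO. That difference, -0.23 ± 0.11, had an edgeR adjusted p of 0.63, or 0.0302 with a block for replicate number. The 7 named H2AZ1 pseudogenes together took 10 counts against 111251 for the gene.

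**Figure D2:**
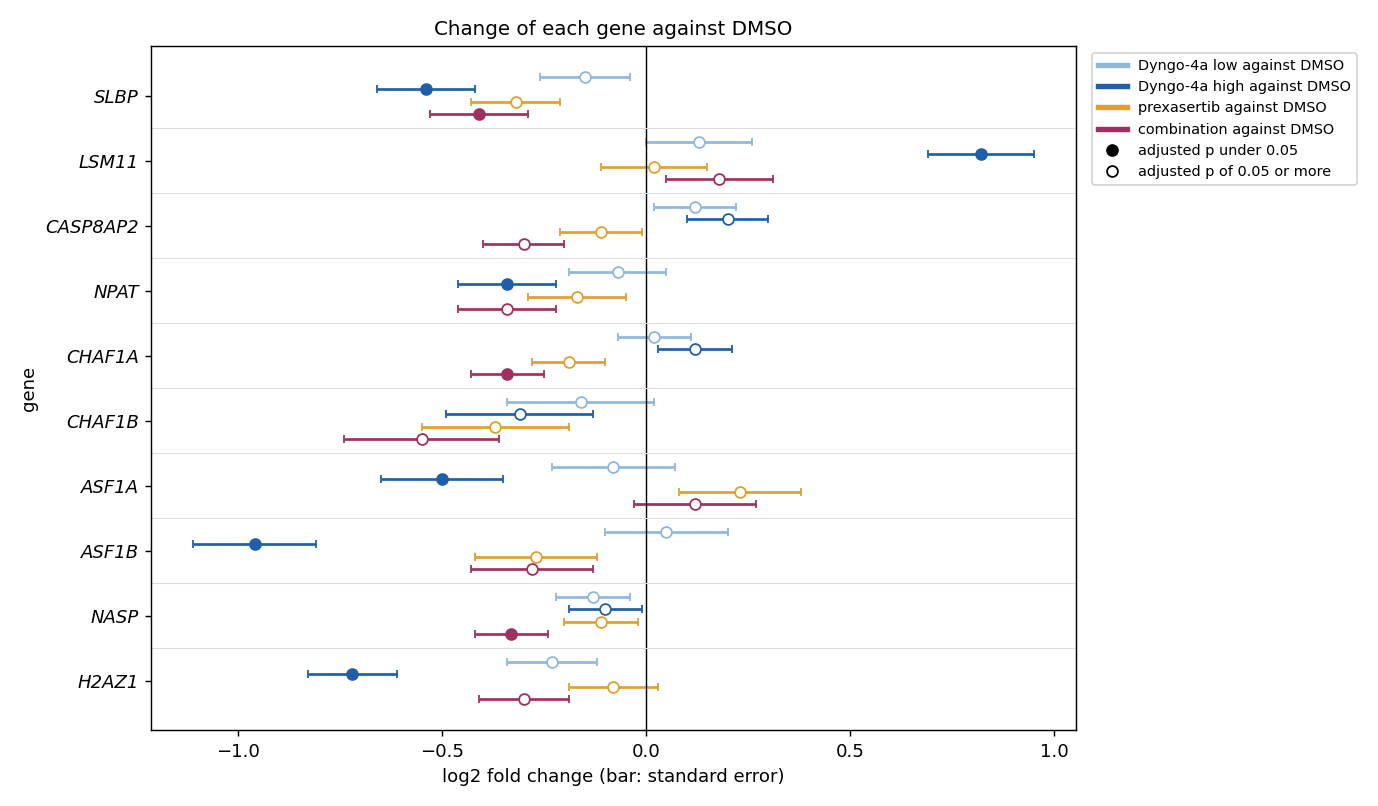
Log2 fold change against DMSO (points, with standard errors) of each of the 10 genes in the 4 treated groups, with filled points where the adjusted p was under 0.05. At the high dose LSM11 stands at 0.82 and ASF1B at -0.96, and the low-dose and prexasertib points are all open.

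Counted over the members, the high dose gave 5 lower (SLBP, NPAT, ASF1A, ASF1B and H2AZ1), where 12.7% of all tested genes were called lower, and 1 higher, where 12.5% were called higher. The median log2 fold change was -0.33 over the members and 0 over all tested genes. In the combination 3 members were lower than DMSO (SLBP, CHAF1A and NASP) and 0 higher, against 2.83% of all tested genes called lower. The median over all 10 members was -0.32, against 0 over all tested genes. SLBP was the only member called in both. At the low dose 0 members were called, as edgeR called 0.262% of all tested genes, and 1 had an unadjusted p under 0.05. Prexasertib alone had 0 called members and 0% of all tested genes called, with 2 members at an unadjusted p under 0.05. DESeq2 and limma-voom also called 0 members in these last 2 comparisons. The comparisons with DMSO share its 4 libraries, so their agreement is not independent.

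**Figure D3:**
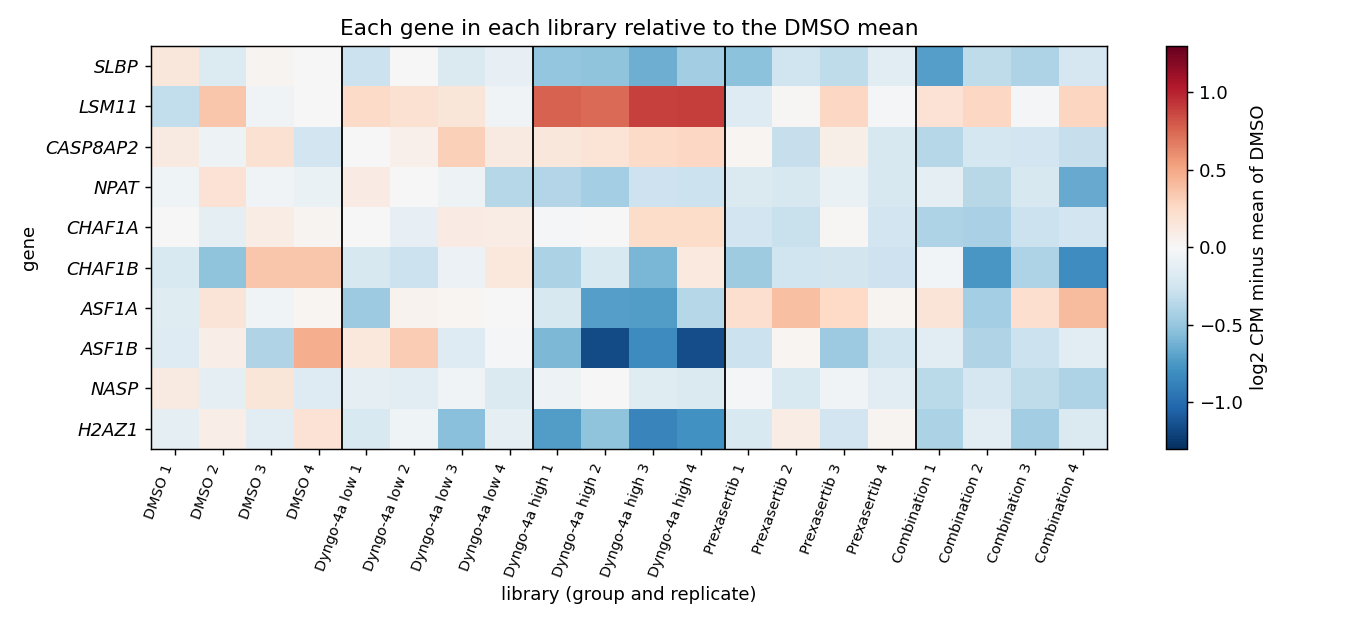
Heat map of log2 CPM minus the mean of the DMSO libraries, for each of the 10 genes (rows) in each of the 20 libraries (columns, in group order); red is above and blue below the DMSO mean. The 4 high-dose libraries are red for LSM11 (group mean 175% of DMSO) and blue for SLBP, ASF1B (51.8%) and H2AZ1 (60.6%), and the 4 combination libraries are blue for CHAF1A (79.1%) and NASP (79.4%).

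The doses of Dyngo-4a were compared directly. High dose against low dose, SLBP (-0.39 ± 0.12 on the log2 scale, edgeR adjusted p = 0.0138), ASF1B (-1 ± 0.15, edgeR adjusted p = 2.11e-05) and H2AZ1 (-0.50 ± 0.11, edgeR adjusted p = 0.000849) were lower, where 10.1% of all tested genes were called lower. LSM11 was higher (0.69 ± 0.12, edgeR adjusted p = 1e-04), where 10.1% were called higher. SLBP lost the call without low-dose replicate 2 (edgeR adjusted p = 0.0741). ASF1A was at -0.42, with an edgeR adjusted p of 0.0523, or 0.0259 with the replicate block, 0.0193 without low-dose replicate 1 and 0.0256 without high-dose replicate 1.

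Set against each single drug, the combination differed most from the high dose. Of the members, 3 were lower in the combination than at the high dose (LSM11, CASP8AP2 and CHAF1A), with 10.1% of all tested genes called lower, and 3 were higher (ASF1A, ASF1B and H2AZ1), with 10.4% called higher. H2AZ1 was higher by 0.42 ± 0.11 on the log2 scale (edgeR adjusted p = 0.00374). NASP was at -0.23 with an edgeR adjusted p of 0.0554. It passed with the replicate block (0.00436), by DESeq2 (0.0238) and limma-voom (0.0463), with library-total scaling (edgeR, 0.0381), and without high-dose replicate 4 (0.0452) or combination replicate 2 (0.0447). All 6 calls held under each of 17 alternatives fitted on all or all but 1 of the libraries concerned. In replicates 2 and 4 alone, ASF1A was at 0.59 and lost its call (edgeR adjusted p = 0.0985).

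Against the low dose 2 members were lower (CASP8AP2 and CHAF1A), where 1.14% of all tested genes were called lower. NASP was at -0.20, with an edgeR adjusted p of 0.237, or 0.0356 with the replicate block. Against prexasertib 0 members were called by edgeR, where 3.44% of all tested genes were called, and 2 had an unadjusted p under 0.05. Those were NASP (-0.22 ± 0.09, edgeR adjusted p = 0.157) and H2AZ1 (-0.22 ± 0.11, edgeR adjusted p = 0.305), and both passed with the replicate block, at 0.0151 and 0.0131. DESeq2 and limma-voom called 0 there. In the test of whether the combination departed from the sum of the log2 effects of prexasertib and the low dose, edgeR, DESeq2 and limma-voom each called 0 members and edgeR called 0.284% of all tested genes. CASP8AP2 had the only unadjusted edgeR p under 0.05 (-0.31 ± 0.14, adjusted p = 0.672). The doses inside the combination are not labelled, so neither single-dose group is known to match it.

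**Figure D4:**
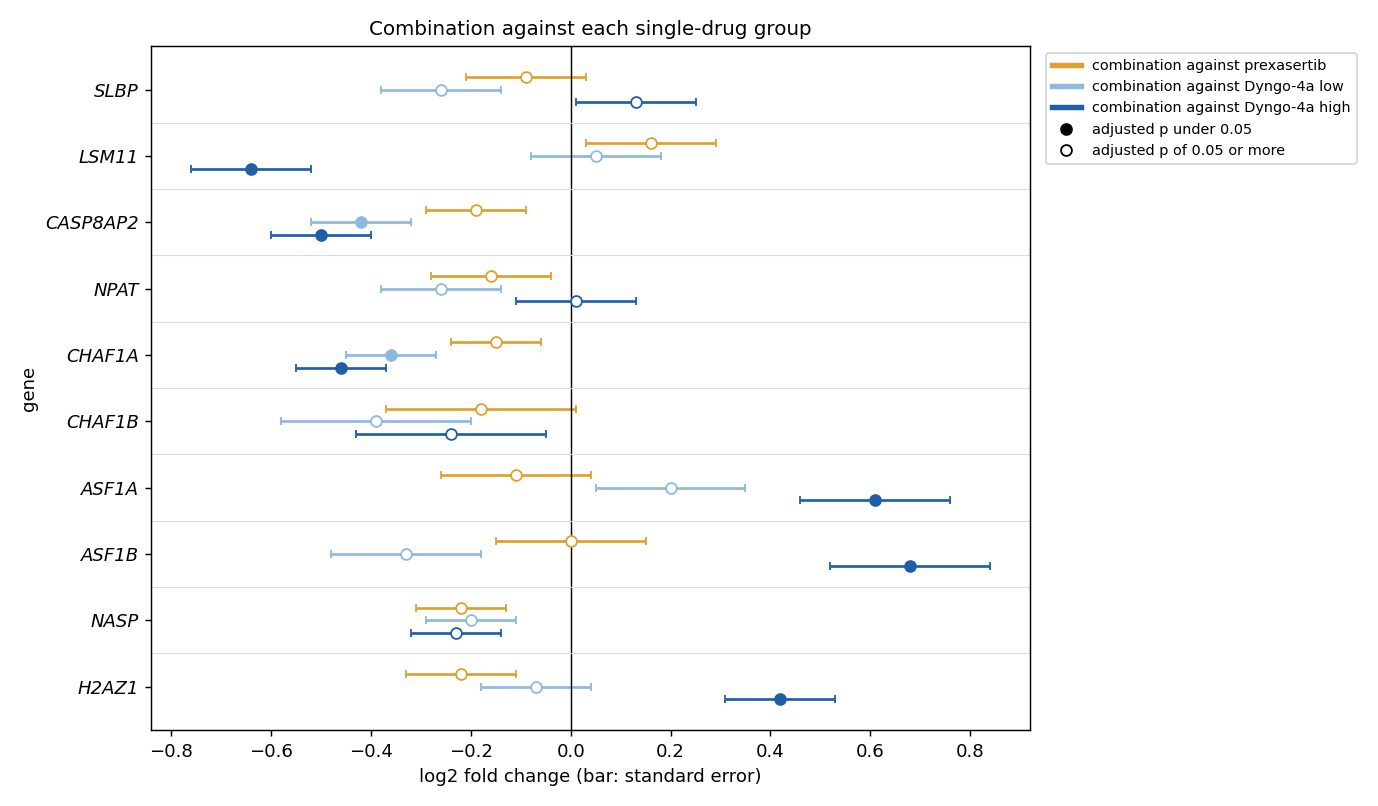
Log2 fold change (points, with standard errors) of the combination against prexasertib, low-dose and high-dose Dyngo-4a for each of the 10 genes, with filled points where the adjusted p was under 0.05. LSM11, CASP8AP2 and CHAF1A are lower and ASF1A, ASF1B and H2AZ1 higher than at the high dose, and all points against prexasertib are open.

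The members did not share 1 profile over the 20 libraries. Correlations are given as descriptions of log2 CPM over 20 libraries that share groups, so group differences enter them. Over all libraries CASP8AP2 and CHAF1A were the closest pair (Pearson r = 0.84, Spearman rho = 0.82), and r was 0.52 after group means were removed. ASF1B and H2AZ1 followed, with r = 0.77 (0.47 within groups), while LSM11 and H2AZ1 had r = -0.72 over all libraries and 0.14 within groups. The paralogs ASF1A and ASF1B had r = 0.56 (0.32 within groups). Within groups, CASP8AP2 was closer to NASP (r = 0.70) than to CHAF1A. Its r within groups was -0.81 with ASF1B and -0.74 with H2AZ1.

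Among 9663 genes (mean log2 CPM 3 or higher), those closest to each member by Pearson r over the same 20 libraries were the following. SLBP was nearest to RRM2, a subunit of ribonucleotide reductase (r = 0.894), and LSM11 to ARRDC4 (r = 0.928). CHAF1A was nearest to POLE, the catalytic subunit of DNA polymerase epsilon (r = 0.852), and NASP to DNMT1, the maintenance DNA methyltransferase (r = 0.83). CASP8AP2 was nearest to CTDSPL2 (r = 0.844), NPAT to SNRNP70 (r = 0.80) and CHAF1B to PAX5 (r = 0.662). ASF1A was nearest to MIDN (r = 0.887), ASF1B to HPCA (r = 0.92) and H2AZ1 to PRDX1, a peroxiredoxin (r = 0.95).

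Libraries 1 and 3 differed from libraries 2 and 4 of the same group for some members, a split seen earlier in these data that no label describes. H2AZ1 was lower in replicates 1 and 3 in 4 of 5 groups, without overlap, and SLBP in 3 of 5, with the reverse in DMSO. NASP was higher in replicates 1 and 3 in 3 of 5 groups, and CHAF1A overlapped in all 5. With 2 libraries on each side, such a separation arises often by chance. Its share over all tested genes was not counted, so it cannot be read as particular to these members. All 21 called differences of the members kept their sign in both subsets. At the high dose, LSM11, ASF1B and H2AZ1 were called against DMSO in both subsets. NPAT (edgeR adjusted p = 0.259 in replicates 1 and 3, 0.117 in replicates 2 and 4) and ASF1A (0.206 and 0.0572) were called in neither, and SLBP lost its call in replicates 2 and 4 (0.0618). High dose against low dose, SLBP was called in neither subset (0.211 and 0.0531). Against the low dose, the combination's calls of CASP8AP2 and CHAF1A were lost in replicates 2 and 4 (0.21 and 0.36). In the combination against DMSO, replicates 1 and 3 alone gave 5 called members and replicates 2 and 4 alone gave 0. The share of all tested genes called in each subset is not given here. SLBP was at -0.65 in the first subset and -0.20 in the second, NASP at -0.48 and -0.18, and CHAF1A at -0.39 and -0.29. These subsets hold 2 libraries a group, and in replicates 2 and 4 the edgeR adjusted p was 0.638 for SLBP, 0.558 for NASP and 0.319 for CHAF1A.

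Genes that work beside the members were counted in lists, to be read against the 12.7% of all tested genes called lower and 12.5% called higher at the high dose. Of 21 other genes of histone message processing and decay, 6 were lower and 1 higher at the high dose, with a median log2 fold change of -0.22. Among them were SRRT, which links the cap-binding complex to processing (-0.75, edgeR adjusted p = 6.92e-07), and the shared Sm proteins SNRPF (-0.57) and SNRPG (-0.66). Of 12 histone transcription factors and cofactors, 3 were lower and 2 higher, with COIL, the coilin of Cajal bodies, at 0.73, CREBBP at 0.42 and NFYB, a CCAAT-binding subunit, at -0.52. Of 22 other H3-H4 chaperone and assembly genes, 5 were lower and 3 higher (the 3 higher are a share near that of all tested genes), including GRWD1 (-0.76), RBBP7 (-0.66) and the remodeller ATRX (0.54). The other H2A.Z exchange genes had 4 lower and 1 higher of 13. ANP32E, which removes H2A.Z, was at -0.68, and the ATPases RUVBL1 and RUVBL2 were at -0.67 and -0.49.

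H2A-H2B chaperones had 5 lower and 0 higher of 12 tested, including NCL (-0.37), SET (-0.38) and NPM3 (-0.66). Replacement histones had 5 lower and 0 higher of 8 tested, including H3-3B (-0.52), MACROH2A1 (-0.47) and H1-10 (-0.56). SET, SNRPG and H3-3B belong to families with near-identical copies, so their counts are less certain.

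In the combination against DMSO, where 2.83% of all tested genes were called lower and 3.47% higher, 1 gene of the processing list, CPSF3, the histone pre-mRNA endonuclease, was lower (-0.34, edgeR adjusted p = 0.0435), and 1 transcription gene, E2F1, was lower (-0.60, edgeR adjusted p = 1.61e-05). Of the H3-H4 list DNAJC9 (-0.44) and DAXX (-0.36) were lower. Of the H2A-H2B list 3 were lower, including SSRP1 (-0.27) and NAP1L4 (-0.33), and NAP1L3 was higher (0.66). The H2A.Z exchange list had 0 called of 13, and H2AX (0.72, edgeR adjusted p = 0.0016) was the 1 replacement histone called. Against the high dose, 10.4% of all tested genes were called higher in the combination and 10.1% lower. There, 6 of 8 replacement histones and 6 of 13 H2A.Z exchange genes were higher, as was H2AZ1. Of the 13, 2 were lower, a share near that of all tested genes.

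**Figure D5:**
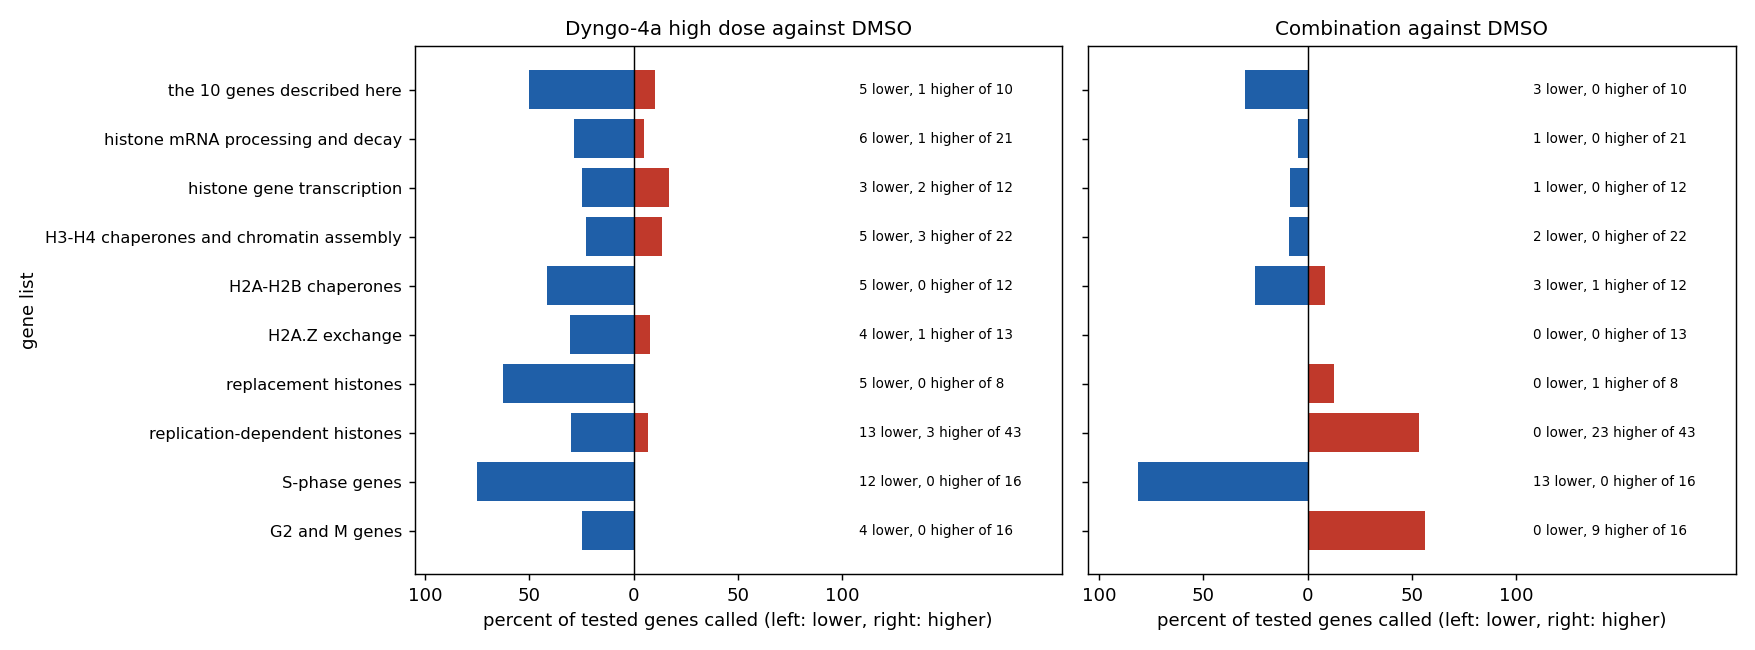
Percent of the tested genes of each list called lower (bars to the left) or higher (bars to the right) against DMSO, at the high dose of Dyngo-4a and in the combination. Of the 43 replication-dependent histone genes tested, 13 are lower and 3 higher at the high dose, and 23 are higher in the combination. Some of the 43 had enough counts to be tested only through the combination.

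The replication-dependent histone genes that the members serve were tested for 43 of 65 genes. At the high dose 13 were lower and 3 higher (median -0.40). In the combination 23 were higher and 0 lower (median 1.34), where 3.47% of all tested genes were called higher. Some of these genes had enough counts to be tested only through the combination. Among them were H4C2 (mean 0.631 CPM in DMSO, 11.3 in the combination) and H2BC26 (0.617 and 9.09), near the level of 3 counts in DMSO. Such genes could hardly come out lower, so the filter partly fixed this count and median. A 3′ assay primed on poly(A) sees these messages only where they carry a tail or an internal run of A, so these counts do not measure their usual stem-loop form. Of 16 S-phase genes beside the members, 12 were lower at the high dose and 13 in the combination, with 0 higher in either (medians -0.51 and -0.49). Of 16 G2 and M genes, 4 were lower at the high dose, and 9 were higher in the combination. The part of cell cycle phase in the members' differences was not tested, nor was that of the MALAT1 share.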

How the data were processed

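RNA from 20 IMR-32 libraries (5 groups of 4) was measured with a 3′ messenger RNA assay carrying molecular identifiers, read single-end, per the labels' protocols. The authors deposited whole-number counts per gene, on GRCh38. The submitters' processing notes name the aligner STAR 2.7.2b, the read checker FastQC 0.11.7, limma 3.50.3 and edgeR 3.36.0. No source used here gives the counting tool, its use of strand or its handling of identifiers. Groups came from the labels.

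Genes were kept with edgeR's filterByExpr (minimum count 10, total 15), and 13729 of 58787 were tested in R 4.3.3 with edgeR 4.0.16 (TMM, robust quasi-likelihood fit, 1 term per group, 15 residual degrees of freedom, common biological variation 12.5%). Symbols came from the reference name table for 41930 of 58787 IDs, and coordinates from GENCODE 29. Replicate pairs within a group had Pearson r of at least 0.97 and chi-square per degree of freedom of 3.05 to 8.76, so no libraries were duplicates. Intervals are 95%. The fit was tested on simulated data for the high dose against DMSO. It recovered 38.8% of 1.5-fold, 77.6% of 2-fold and 97% of 4-fold changes, with 11 false calls. The simulation changed 67 of 13528 genes by 1.5-fold, 67 by 2-fold and 66 by 4-fold, where edgeR called 3456 in the data. It covered no other comparison, so these shares need not hold for the data or elsewhere. A member without a call can still hold a change of 1.5-fold, or even of 2-fold.

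Same-numbered libraries deviated together (every correlation over 0.1) in 6 comparisons, and not in high dose or combination against DMSO, where the lowest were 0.0271 and 0.0274. In those 6 the blocked value is given where it changes a call. This pairing comes from the data, not the labels.

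Alternatives were library-total scaling, scaling by relative log expression size factors, and filters on low counts (none, or 1 CPM in at least 4 libraries). Others were limma-voom (limma 3.58.1), DESeq2 1.42.0, fits of only the groups compared and a replicate block. A term separating replicates 1 and 3 from the rest was also fitted, and each library was left out in turn. Fits of replicates 1 and 3 alone, and 2 and 4 alone, were chosen after seeing the data. Members, gene lists and motif words were chosen with earlier results of these data known. All 10 members are named. From each list at most 3 called genes with the smallest p are named, and for likeness the genes of highest Pearson r. Promoters are RefSeq windows (GRCh38.p14), matched for 10 of 10 members. Protein sequences were not used here.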

Additional observations from a re-analysis of the deposited data

Results flagged for a closer look

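In 50 sets of 4 libraries (10 genes in 5 groups), 4 had a library that stood apart from the other 3 by Dixon's criterion (gap over range above 0.829), where chance gives about 1 in 20. NPAT was 48.1 CPM in DMSO replicate 2, above the other DMSO libraries at 39.9 to 41.1, and without this library the high-dose call was lost. In prexasertib replicate 3, NPAT was 39.8 CPM and CHAF1A 151 CPM, each above the other prexasertib libraries. ASF1A was 25.2 CPM in low-dose replicate 1, below the other 3.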

How the results depend on the processing

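Of 179 recomputed counts of called members, 163 lay within 1.5 times the reported count and 16 did not. The 163 include comparisons with 0 reported, where 0 again was taken as unchanged. Those were the low dose and prexasertib against DMSO, the combination against prexasertib, and the test of departure from the sum. Under prexasertib 0% of all tested genes were called, so that agreement says little. No called difference changed sign. For the combination against DMSO (3 called), the count was 5 with no filter on low counts, 1 when only these groups were fitted, 6 with the term for replicates 1 and 3, 5 in replicates 1 and 3 alone and 0 in replicates 2 and 4 alone. Leaving out 1 library gave 0 to 4. With the replicate block it was 7, adding CASP8AP2 (edgeR adjusted p = 0.00404), NPAT (0.0286), CHAF1B (0.02) and H2AZ1 (0.000224), and at the high dose the block added CASP8AP2 (0.0209). In both of these, 3 of 4 libraries correlated best with their own number, which is a hint from the data only. The block gave 1 member at the low dose (0 reported) and 2 for the combination against prexasertib (0 reported, and 2 in replicates 1 and 3 alone). For the combination against the low dose (2 reported), leaving out 1 library gave 0 to 2, and replicates 2 and 4 alone gave 0. Leaving out 1 library gave 4 to 6 at the high dose against DMSO, 3 to 5 against the low dose, and 6 to 7 for the combination against the high dose. The share of all tested genes called under each of these settings is not given here. These counts therefore cannot be read as particular to the members. The causes of the changes in count were not tested.

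Depth limits CHAF1B most, at 64 to 187 counts in a library.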
